A study of Mus musculus with 12 samples.

Results

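The presynaptic vesicle and release machinery was followed here through 45 genes, out of 55471 in the count table, in primary mouse hippocampal neurons with and without knockdown (KD) of the long noncoding RNA *Neuid*. The members are a list of gene symbols: 15 encode proteins on or of the synaptic vesicle, 10 are SNAREs and their regulators, 13 belong to the active zone or to its adhesion molecules, and 7 act in endocytosis. The synaptotagmins, the calcium sensors of release, were left out of the list. Symbols were matched to the Ensembl gene identifiers of the table, each symbol had 1 identifier, and all 45 genes passed the filter on low counts, as did 19578 genes in all.

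At a synapse, vesicles are filled with transmitter by vesicular transporters, tethered and primed at the active zone, and fused with the plasma membrane when a SNARE on the vesicle zips up with SNAREs on the target membrane. Complexins, Munc13 and RIM proteins set how readily this happens, the giant scaffolds bassoon and piccolo hold the release site together, and neurexins link it across the cleft to the postsynaptic cell. After fusion, dynamin, amphiphysin, endophilin and synaptojanin retrieve the membrane. These genes are largely neuronal in the brain, and hippocampal pyramidal and granule neurons in culture express most of them while they build synapses.

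The libraries came from wild-type neurons of embryonic CD1 mouse hippocampus, kept in Neurobasal medium with B27. At day in vitro (DIV) 7 the cultures received lipid nanoparticles that carried either a negative control gapmer or a gapmer against *Neuid*, and RNA was taken at DIV 10. Gapmers are antisense oligonucleotides that direct RNase H to a transcript, so both groups had oligonucleotide and carrier, and untreated cultures are not among the 12 libraries. There were 6 control and 6 *Neuid* KD libraries. The labels do not say which libraries came from separate cultures or litters, so the p-values measure the spread between these libraries, which may be partly technical. The cultures were not sorted, and in such bulk RNA fewer cells of a type and less RNA per cell cannot be told apart.

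*Neuid* (Gm10419) was at 28.4 ± 2.03 CPM in control and at 8.05 ± 1.13 CPM in *Neuid* KD (SD, n = 6 libraries each), with no overlap between the groups (log2 fold change -1.81, adjusted p = 1.3e-10). CPM here are counts scaled to a common library size, after TMM normalization. All 20 pan-neuronal markers had reads in every library, and their summed level was 10130 to 11914 CPM in control and 10068 to 11809 CPM in *Neuid* KD. Of the 14 tested astrocyte markers all 14 rose, and their summed level went from 2106 to 2665 CPM in control to 5108 to 5692 CPM in *Neuid* KD. Their part in the results below was not tested. Libraries held 18002585 to 30914714 reads in control and 11152556 to 30573480 in *Neuid* KD. Reads on 2014 chemosensory receptor genes, used as a measure of background, reached at least 100 CPM in 4 control and 3 *Neuid* KD libraries. They were below that in 2 control and 3 *Neuid* KD libraries, so comparisons within the latter rest on 2 control libraries.

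Replicate 1 of *Neuid* KD, the smallest library, stood apart within its group. It was below all 5 other *Neuid* KD libraries in 35 of the 45 members and above all of them in 1 (Sv2c). Summed over the members, it had 10814 CPM against 12868 to 13480 CPM in the other 5 *Neuid* KD libraries and 11585 to 13451 CPM in control. The same count over all tested genes was not made. This library was also the lowest of its group in the summed pan-neuronal markers (10068 CPM, the others 10947 to 11809 CPM). The same held for the summed genes of the postsynaptic density (5584 CPM, the others 6736 to 6949 CPM). It was not the lowest in the summed astrocyte markers (5122 CPM, the others 5108 to 5692 CPM). The background of replicate 1 was 617 CPM, and the summed member level was lower in the 7 libraries with at least 100 CPM of background (10814 to 12929 CPM) than in the 5 libraries below that (13372 to 13480 CPM). The summed pan-neuronal markers were split in the same way, with 10068 to 11576 CPM in the 7 libraries and 11648 to 11914 CPM in the 5. Counts that rest on *Neuid* KD replicate 1 are therefore given with and without it.

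Upstream sequence was looked at in the RefSeq tables of GRCm38.p6 for 36 of the members, in 46 windows that run from 250 bases before to 50 bases after an annotated start. The windows are shown for 3 members whose counts differed between the groups and for Syn1, whose window holds known kinds of neuronal regulatory motif. Capitals mark matches, on either strand, to the GC box GGGCGG, to the CRE TGACGTCA or to TTCAGCACC, the left part of the RE1 element that the repressor REST binds.
Erc2, chr14:27622157-27622456 (+ strand): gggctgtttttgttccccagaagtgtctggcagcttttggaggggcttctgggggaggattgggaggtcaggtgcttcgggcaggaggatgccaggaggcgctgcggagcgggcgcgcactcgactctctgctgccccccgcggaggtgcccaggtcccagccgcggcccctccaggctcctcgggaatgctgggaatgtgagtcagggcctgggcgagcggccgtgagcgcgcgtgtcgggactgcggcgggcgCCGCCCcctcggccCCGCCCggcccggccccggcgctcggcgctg
Sncb, chr13:54766546-54766845 (- strand): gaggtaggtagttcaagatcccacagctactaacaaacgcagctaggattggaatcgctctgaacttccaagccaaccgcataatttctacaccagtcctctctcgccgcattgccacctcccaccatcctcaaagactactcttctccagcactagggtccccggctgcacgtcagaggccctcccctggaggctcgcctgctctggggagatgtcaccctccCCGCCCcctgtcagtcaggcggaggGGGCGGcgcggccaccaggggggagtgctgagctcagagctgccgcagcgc
Slc17a6, chr7:51621580-51621879 (+ strand): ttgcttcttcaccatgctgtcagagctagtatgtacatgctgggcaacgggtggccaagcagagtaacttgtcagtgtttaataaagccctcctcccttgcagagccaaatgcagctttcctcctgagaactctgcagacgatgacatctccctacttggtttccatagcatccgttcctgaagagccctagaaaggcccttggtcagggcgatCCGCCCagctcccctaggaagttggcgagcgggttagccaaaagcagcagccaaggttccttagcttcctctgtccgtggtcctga
Syn1, chrX:20920869-20921168 (- strand): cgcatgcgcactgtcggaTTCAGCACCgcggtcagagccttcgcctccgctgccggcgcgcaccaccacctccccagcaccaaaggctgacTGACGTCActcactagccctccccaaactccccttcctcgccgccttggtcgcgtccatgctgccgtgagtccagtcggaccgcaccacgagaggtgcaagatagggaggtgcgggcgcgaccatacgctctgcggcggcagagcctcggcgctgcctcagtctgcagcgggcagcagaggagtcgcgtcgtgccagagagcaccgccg
The windows of Erc2, Sncb and Slc17a6 hold only GC boxes among these motifs. The GC box was present in 29 of the 46 member windows and in 35.7% of all 32851 windows in the table. The CRE was present in 2 member windows, those of Syn1 and Sh3gl2, and in 1.79% of all windows. The left part of RE1 was present in 3 member windows, those of Syn1, Unc13a and Ppfia3, and in 0.371% of all windows. No member window held an exact match to the left and right parts of RE1 together. Forms with mismatched letters were not searched for. The median GC content was 62.2% in the member windows and 52.7% in all windows. For Nrxn3 the nearest window lies 71628 bases from the start of the gene used for counting, so it is not shown. A match is a description of the letters only.

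The machinery was abundantly transcribed. Per length of exon, the highest levels, averaged over both groups, were those of Cplx2 with 219 RPKM, Rab3a with 156 RPKM, Cplx1 and Vamp2 with 132 RPKM each, Syn1 with 129.8 RPKM, Sncb with 121 RPKM and Syp with 109 RPKM. At the other end were Syn3 with 0.586, Unc13c with 0.769 and Vamp1 with 0.783 RPKM, a 374-fold range. Together the members took 1.25% to 1.32% of the reads of a control library and 1.15% to 1.28% of those of a *Neuid* KD library. The lowest count of a member was 140 reads in a control library (Unc13c) and 79 reads in a *Neuid* KD library (Syn3). Between control libraries the coefficient of variation was under 10% for 39 of the 45 members.

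Of the 45 members, 7 (15.6%) were called with *Neuid* knocked down, against 8.72% of all tested genes. Of these, 3 rose, all of them at the active zone (Nrxn3, Erc2 and Rims2), and 4 fell, namely the vesicle genes Sncb, Slc17a6 and Sv2c and the active zone gene Rimbp2. The 3 that rose are 6.67% of the members, against 6.31% of all tested genes called higher, and the 4 that fell are 8.89%, against 2.42% of all tested genes called lower. Among the 4895 genes with the highest expression, where 37 of the members sit, 11.7% were called higher and 2.74% lower. The call was an adjusted p under 0.05 in edgeR's quasi-likelihood fit of all 19578 genes. Only Nrxn3 also had a log2 fold change past 0.5, which 2.44% of all tested genes did upward and 0.792% downward. The groups did not overlap for 4 members (Nrxn3, Erc2, Sncb and Rimbp2), or 8.89%, against 5.70% of all tested genes and 9.32% of the 4895 most highly expressed ones. With *Neuid* KD replicate 1 left out and the other libraries normalized again, the counts were 4 higher and 4 lower (8.89% each). Of all tested genes 6.11% were then called higher and 3.94% lower. The addition among the members was Sv2b (edgeR adjusted p = 0.0212). After that normalization 6 members (13.3%) did not overlap, against 7.83% of all tested genes. The counts depended on scaling, for the members and for all tested genes. With upper-quartile normalization 4 members were higher and 10 lower, where 5.36% of all tested genes were higher and 6.43% lower. With scaling to the pan-neuronal markers 8 members were higher and 5 lower, where 8.2% of all tested genes were higher and 3.24% lower. In that setting the median log2 fold change of the members was -0.005, as in the main fit. When GC content and length entered the fit as offsets, only Nrxn3 was called, and with no filter on low counts only Nrxn3 and Erc2. The log2 fold changes with those offsets were close to those without, at 0.58 for Nrxn3, 0.42 for Erc2, 0.25 for Rims2, -0.24 for Sncb, -0.31 for Slc17a6, -0.23 for Rimbp2 and -0.28 for Sv2c.

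For the other members the data limit how large a difference could be. The median log2 fold change of the 45 members was -0.005, against -0.027 over all tested genes, 21 of the 45 were positive, against 44.4% of all tested genes, and the values ran from -0.37 for Unc13c to 0.61 for Nrxn3. The 95% interval of the log2 fold change lay wholly within -0.5 to 0.5 for 40 members (88.9%) and within -0.3 to 0.3 for 33. Among all tested genes 52.0% had an interval within -0.5 to 0.5, and among the 4895 most highly expressed genes 94.9% did. The plot of fold changes shows these intervals.

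**Figure D1:**
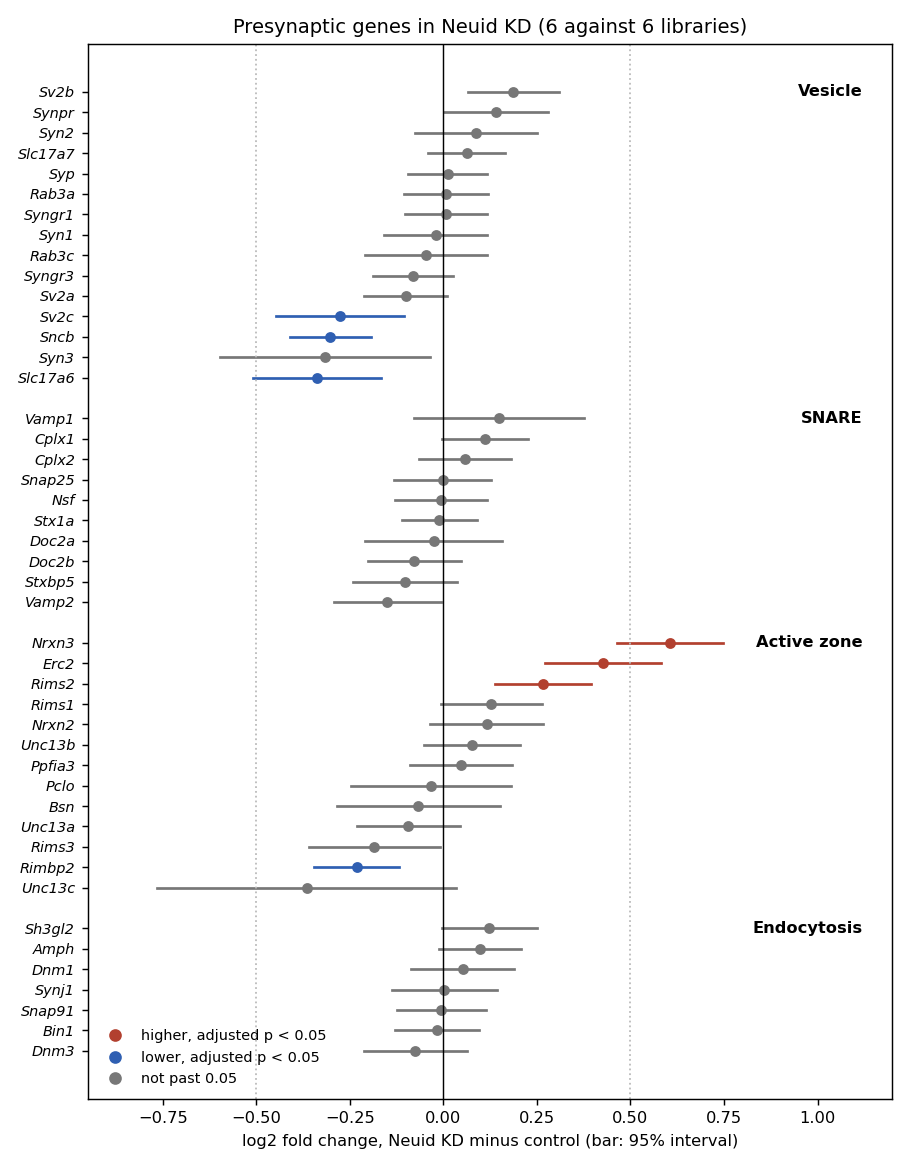
Log2 fold change (x axis, *Neuid* KD minus control) of the 45 members, grouped by role, with points for the estimate and bars for the 95% interval from edgeR, 6 libraries per group. Dotted lines mark -0.5 and 0.5; 3 active zone genes are red (higher), 4 genes are blue (lower), and the SNARE and endocytosis groups are grey throughout.

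Among the 15 vesicle genes edgeR called none higher and 3 lower (range of log2 fold changes -0.34 to 0.19), while DESeq2 and limma-voom each called 1 higher, Sv2b, and 3 lower. Sncb encodes beta-synuclein, a small presynaptic protein related to alpha-synuclein. It was at 261.5, 286 and 311 CPM in the lowest, median and highest control library and at 219.7, 236 and 243 CPM in *Neuid* KD. All 6 *Neuid* KD libraries were below all control libraries, and the log2 fold change was -0.30 ± 0.05 (SE, adjusted p = 6.7e-04). Among the 7 libraries of higher background (at least 100 CPM, 4 control and 3 *Neuid* KD) the edgeR value for Sncb was -0.30 (adjusted p = 0.105). Among the other 5 (2 control and 3 *Neuid* KD) it was -0.36 (adjusted p = 3.0e-08), with only 2 libraries to give the spread of control.

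Slc17a6 and Slc17a7 encode the vesicular glutamate transporters VGLUT2 and VGLUT1, which load vesicles with glutamate, and VGLUT1 is the usual form in hippocampal principal neurons. Slc17a6 was at 22.9, 26.1 and 31.7 CPM in the lowest, median and highest control library and at 17.8, 21.1 and 23.3 CPM in *Neuid* KD, so that only the edges of the groups met. Its log2 fold change was -0.34 ± 0.08 (SE, adjusted p = 0.0124). Slc17a7, at 82.4 RPKM in control where Slc17a6 was at 4.89, had 413, 440.4 and 486 CPM in control and 426, 468 and 482 CPM in *Neuid* KD. These groups lay on top of each other (log2 fold change 0.06, 95% interval -0.04 to 0.17).

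The SV2 proteins are glycoproteins of the vesicle membrane, encoded by Sv2a, Sv2b and Sv2c. Sv2c was at 19.6, 20.2 and 23.5 CPM in the lowest, median and highest control library and at 13.8, 17.3 and 19.8 CPM in *Neuid* KD, and the groups touched. Its log2 fold change was -0.28 ± 0.08 (SE, adjusted p = 0.0414). This call was the least firm of the 7: it was lost without any one of control replicates 1, 3, 4, 5 and 6 or of *Neuid* KD replicates 2, 3 and 4 (adjusted p between 0.0516 and 0.107 for Sv2c), and without *Neuid* KD replicate 1 it was -0.35 (adjusted p = 0.0063). Among the 7 libraries of higher background it was -0.14 (adjusted p = 0.811), and among the other 5 it was -0.42 (adjusted p = 0.0085).

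Sv2b was at 452, 519.9 and 563 CPM in the lowest, median and highest control library and at 519, 589 and 623 CPM in *Neuid* KD. The lowest *Neuid* KD library was replicate 1, and on this scale the other 5 lay above all control libraries, whereas after normalization without replicate 1 the groups overlapped. Its log2 fold change of 0.19 ± 0.06 (SE) missed the threshold (adjusted p = 0.0546) but was called in 12 of 27 alternatives (another setting or 1 library left out), among them DESeq2 (adjusted p = 0.0414), limma-voom (0.0442) and the fits without *Neuid* KD replicate 1 (0.18, adjusted p = 0.0212) and without control replicate 3 (adjusted p = 0.0437). Sv2a was at 215, 227 and 242 CPM in control and at 186, 216 and 225 CPM in *Neuid* KD, with a log2 fold change of -0.10 (95% interval -0.21 to 0.01).

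The 2 vesicle genes with the highest RPKM, Rab3a and Syn1, were not called. Rab3a, a small GTPase that docks vesicles, was at 319, 348 and 374 CPM in the lowest, median and highest control library and at 325, 353 and 369 CPM in *Neuid* KD. Syn1, which encodes synapsin I, a phosphoprotein that tethers vesicles in the reserve pool, was at 401, 436 and 459 CPM in control and at 341, 443 and 449 CPM in *Neuid* KD. The groups overlapped for both genes, with 95% intervals of -0.10 to 0.12 for Rab3a and -0.16 to 0.12 for Syn1. For the tetraspanning vesicle proteins of the synaptogyrin family, Syngr1 was at 196, 212 and 225 CPM in control and at 195, 214 and 218 CPM in *Neuid* KD. Syngr3 was at 108, 117 and 127 CPM in control and at 108, 111 and 114 CPM in *Neuid* KD. Neither was called. Syp, the classical synaptic vesicle marker synaptophysin, had a log2 fold change of 0.01 (95% interval -0.09 to 0.12). The remaining vesicle genes, Syn2, Syn3, Synpr and Rab3c, lay between -0.32 and 0.14, and the value of -0.32 belongs to Syn3, the weakest member, which was called without control replicate 3 (adjusted p = 0.0195).

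None of the 10 SNAREs and SNARE regulators was called, by edgeR or in the DESeq2 and limma-voom alternatives, and all 10 intervals lay within -0.5 to 0.5. With upper-quartile normalization 3 were called lower (Vamp2, Stxbp5 and Doc2b), and with scaling to the pan-neuronal markers Cplx1 was called higher and Vamp2 lower. Vamp2 was called lower in 6 of the 27 alternatives. At an unadjusted p under 0.05 there was 1 such gene, Vamp2, which encodes synaptobrevin 2, the main SNARE of the vesicle. Over all 19578 tested genes, 3687 had an unadjusted edgeR p under 0.05. Vamp2 was at 485, 522 and 585 CPM in the lowest, median and highest control library and at 386, 489 and 521 CPM in *Neuid* KD, where 386 CPM was replicate 1. The groups overlapped (log2 fold change -0.15, 95% interval -0.29 to -0.01, adjusted p = 0.241). The complexins, which clamp and promote fusion, were the most abundant of this group. Cplx2 was at 921, 1084 and 1138 CPM in control and at 974, 1121 and 1153 CPM in *Neuid* KD. Cplx1 was at 255, 276 and 304 CPM in control and at 273, 303 and 319 CPM in *Neuid* KD. Both pairs of groups overlapped, with log2 fold changes of 0.06 for Cplx2 and 0.11 for Cplx1. For the plasma membrane SNAREs, the log2 fold change was -0.002 for Snap25 (95% interval -0.13 to 0.13) and -0.01 for Stx1a (-0.11 to 0.09), and for Nsf, the ATPase that takes SNARE complexes apart, it was -0.006 (-0.13 to 0.12). The value of Doc2a is less certain, since 39.4% of its exon bases are shared with Ino80e in the annotation. This limit also holds for the vesicle genes Syp (16.8% shared with Gm14703) and Syn3 (14.1% shared with Timp3). No other member shared more than 10%.

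The active zone and adhesion group held the largest differences. Of its 13 genes 3 rose and 1 fell. Nrxn3 encodes neurexin 3, a presynaptic adhesion receptor for neuroligins and other postsynaptic partners. It was at 46.4, 47.3 and 47.8 CPM in the lowest, median and highest control library and at 55.0, 74.1 and 78.1 CPM in *Neuid* KD. All *Neuid* KD libraries were above all control libraries, and replicate 1, at 55.0 CPM, lay well below the other 5, which started at 72.4 CPM. The level was 1.52-fold that of control (log2 fold change 0.61 ± 0.07, SE, adjusted p = 6.5e-06). Without replicate 1 the log2 fold change was 0.63 (adjusted p = 4.9e-09). Among the 7 libraries of higher background (at least 100 CPM) it was 0.58, and among the other 5 it was 0.62.

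Erc2 encodes a scaffold of the ELKS/CAST family that binds RIM, bassoon and piccolo. Its control libraries were at 212, 261 and 276 CPM (lowest, median and highest) and its *Neuid* KD libraries at 285, 353 and 368 CPM. The groups did not overlap, and the lowest *Neuid* KD library was again replicate 1. The log2 fold change was 0.43 ± 0.07 (SE, adjusted p = 7.1e-04), 0.43 without replicate 1, and 0.40 and 0.38 within the libraries above and below 100 CPM of background.

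The RIM proteins bind Rab3 on the vesicle and tether calcium channels and Munc13 to the active zone. Rims2 was at 68.4, 74.3 and 82.9 CPM in the lowest, median and highest control library and at 80.2, 89.9 and 97.9 CPM in *Neuid* KD, where on this scale only replicate 1 reached down into the control range. Its log2 fold change was 0.27 ± 0.06 (SE, adjusted p = 0.0088). The call for Rims2 was lost without control replicate 2 or 6 or *Neuid* KD replicate 2, 3 or 5 (adjusted p between 0.0526 and 0.0745). Among the 7 libraries of higher background the value was 0.32 (adjusted p = 0.0582), and among the other 5 it was 0.14 (adjusted p = 0.111).

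The other RIM genes were not called. Rims1 was at 213, 229 and 247 CPM in the lowest, median and highest control library and at 206, 257 and 273 CPM in *Neuid* KD (log2 fold change 0.13, 95% interval -0.01 to 0.26), with replicate 1 again the lowest. Without replicate 1 the value for Rims1 was 0.14 (95% interval 0.05 to 0.23, edgeR adjusted p = 0.0588). Rims3, which encodes a short RIM without the Rab3-binding part, was at 22.3, 25.0 and 26.3 CPM in control and at 18.5, 21.2 and 27.0 CPM in *Neuid* KD (log2 fold change -0.18, 95% interval -0.36 to -0.01, adjusted p = 0.228). It was called without *Neuid* KD replicate 2 (adjusted p = 0.0443).

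Rimbp2, a RIM-binding protein that links RIM to calcium channels, went the other way from Rims2. It was at 83.8, 91.3 and 95.5 CPM in the lowest, median and highest control library and at 66.5, 78.4 and 82.7 CPM in *Neuid* KD. The groups did not overlap, with 82.7 CPM just under 83.8 CPM (log2 fold change -0.23 ± 0.05, SE, adjusted p = 0.0089). Without replicate 1, which had the 66.5 CPM, it was -0.24 (adjusted p = 8.6e-04). Among the 7 libraries of higher background it was -0.21 (adjusted p = 0.435), and among the other 5 it was -0.30 (adjusted p = 6.0e-05).

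The 2 most abundant genes of the group per length were Bsn and Nrxn2. Bsn, which encodes bassoon, was at 748, 799.5 and 847 CPM in the lowest, median and highest control library and at 483, 806 and 848 CPM in *Neuid* KD. The 483 CPM were replicate 1, and the other 5 started at 799 CPM, within the control range. The log2 fold change was -0.07 (95% interval -0.29 to 0.15), and without replicate 1 it was -0.01 (95% interval -0.09 to 0.07). Pclo, which encodes piccolo, had the same shape, with 402 CPM in replicate 1 and 662 to 692 CPM in the other 5, and without replicate 1 its log2 fold change was 0.03 (95% interval -0.05 to 0.11). Nrxn2, at 553, 611 and 698 CPM in control and at 531, 694 and 732 CPM in *Neuid* KD, was not called (log2 fold change 0.12, 95% interval -0.04 to 0.27). Without replicate 1 the value for Nrxn2 was 0.13 (95% interval 0.03 to 0.24, edgeR adjusted p = 0.0952). The Munc13 genes, whose proteins prime vesicles, had log2 fold changes of -0.09 for Unc13a, 0.08 for Unc13b and -0.37 for Unc13c. Unc13c was barely expressed and its interval was wide (-0.77 to 0.03).

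**Figure D2:**
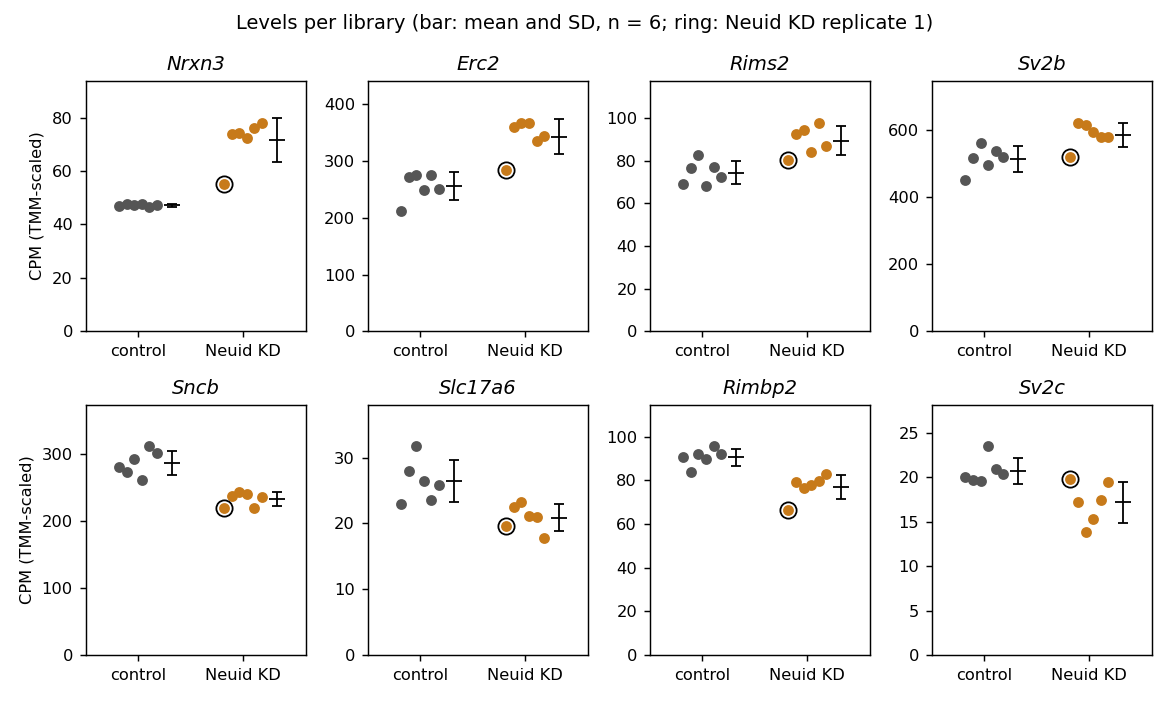
TMM-scaled CPM (y axis, from 0) in each of the 6 control (grey) and 6 *Neuid* KD (orange) libraries for the 7 called members and Sv2b, with the mean and SD of each group beside the points and a ring around *Neuid* KD replicate 1. Nrxn3, Erc2, Sncb and Rimbp2 have no overlap between the groups, and the ringed library is the lowest *Neuid* KD point in every panel except those of Slc17a6 and Sv2c.

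None of the 7 endocytosis genes was called by edgeR, DESeq2 or limma-voom, none had an unadjusted p under 0.05, and all 7 intervals lay within -0.5 to 0.5. Of all 19578 tested genes, 3687 had an unadjusted edgeR p under 0.05. With scaling to the pan-neuronal markers 2 were called higher, Amph (adjusted p = 0.0346) and Sh3gl2 (adjusted p = 0.0177). Amph encodes amphiphysin, which brings dynamin to the neck of the budding vesicle. It was at 334, 369.7 and 399 CPM in the lowest, median and highest control library and at 367, 397 and 415 CPM in *Neuid* KD. Dnm1, the neuronal dynamin that cuts the neck, was at 376, 403 and 432 CPM in control and at 341, 439 and 448 CPM in *Neuid* KD. The groups overlapped for both, with log2 fold changes of 0.10 for Amph and 0.05 for Dnm1. Sh3gl2, which encodes endophilin A1, had the value farthest from 0 in this group, 0.12 (95% interval -0.004 to 0.25), at 111, 122 and 134 CPM in control and 124, 134 and 146 CPM in *Neuid* KD. Dnm3 was at 139.6, 152 and 162 CPM in control and at 115, 148 and 155 CPM in *Neuid* KD, with a log2 fold change of -0.07. Bin1, the second amphiphysin gene, was at 109, 116 and 130.1 CPM in control and at 108, 117 and 121 CPM in *Neuid* KD, with a log2 fold change of -0.02. Synj1 and Snap91, for synaptojanin 1 and the clathrin adaptor AP180, had log2 fold changes of 0.002 and -0.005.

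The map of all members across the libraries shows how far the single library weighs on these values. Most of the column of replicate 1 is below the control mean, with Bsn and Pclo lowest, while Nrxn3 and Erc2 are above it there too. As a check that does not rest on library scaling alone, the summed member level was divided by the summed level of the pan-neuronal markers in the same library. This ratio was 1.13 ± 0.012 in control and 1.14 ± 0.036 in *Neuid* KD (SD, n = 6 each), and 1.15 ± 0.017 without replicate 1 (SD, n = 5).

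**Figure D3:**
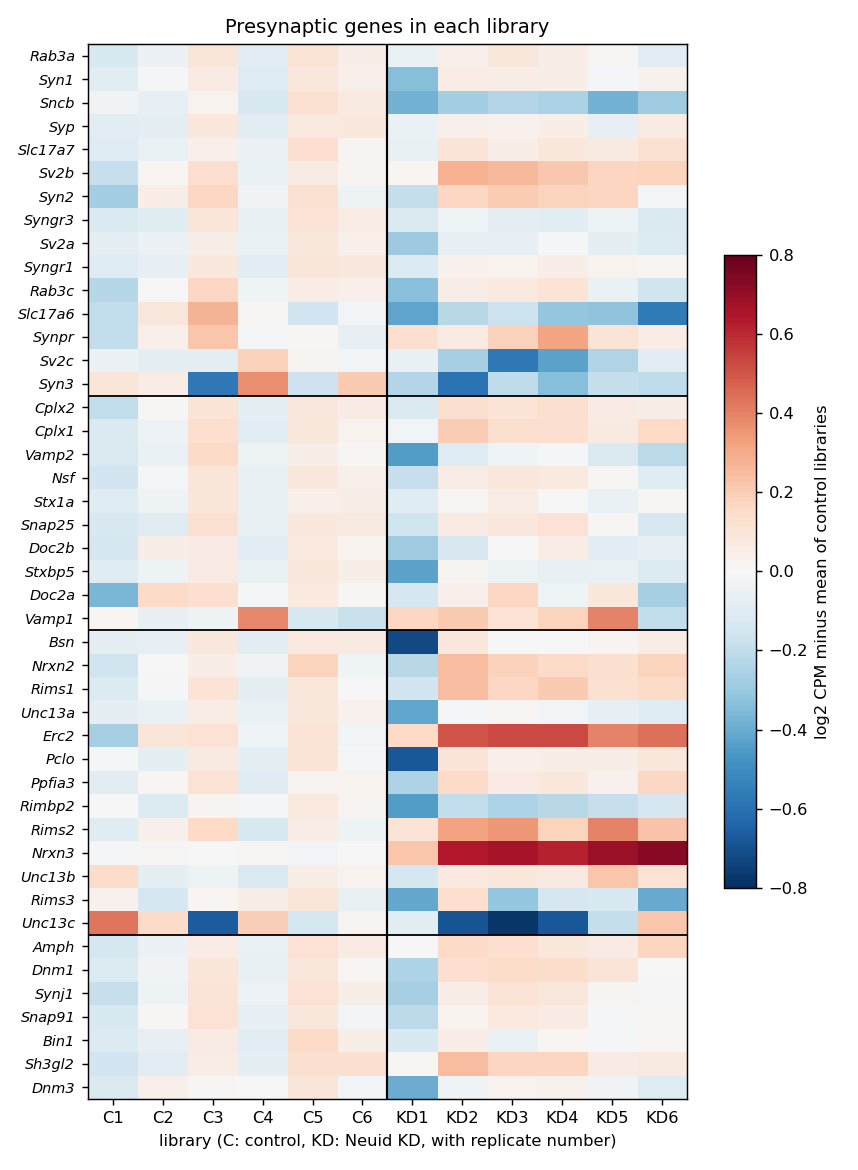
Log2 CPM of each of the 45 members (one line each, by role and then by falling RPKM) minus the mean of its control libraries, in control (C1 to C6) and *Neuid* KD (KD1 to KD6) libraries, with red above and blue below that mean. KD1 is below all other *Neuid* KD libraries in 35 members, and the lines of Nrxn3 and Erc2 are red in all 6 *Neuid* KD libraries.

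Many of these genes come in families whose members stand in for one another. The count of one member over that of another in the same library does not depend on library scaling, so 18 such ratios were compared with two-sided exact permutation tests over all arrangements of 6 against 6 libraries, adjusted over the 18. The smallest p this allows is 0.002165. In all 8 ratios differed, 3 higher and 5 lower in *Neuid* KD, and 4 of the 8 had no overlap between the groups. The ratios use the same counts as the values above, and read counts are not per length, so a ratio is read between groups only.

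Of the SV2 proteins, Sv2b gained on Sv2a. The ratio of their counts was 2.10, 2.25 and 2.40 in the lowest, median and highest control library and 2.65, 2.78 and 2.86 in *Neuid* KD, with no overlap and with replicate 1 in place among the others (log2 difference 0.29 ± 0.03, SE, exact permutation p = 0.00974 after adjustment). In the edgeR fit of all 12 libraries neither gene was called by itself, while 12 of the 27 alternatives called Sv2b higher and 5 called Sv2a lower. Within the libraries above and below 100 CPM of background, a comparison chosen after the data had been seen, the log2 difference of Sv2b/Sv2a was 0.30 and 0.27.

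Of the neurexins, Nrxn3 gained on Nrxn2. The ratio was 0.0666, 0.0778 and 0.0847 in the lowest, median and highest control library and 0.101, 0.106 and 0.113 in *Neuid* KD (log2 difference 0.48 ± 0.05, SE, adjusted exact permutation p = 0.00974). The groups did not overlap, and the difference was 0.46 and 0.57 in the libraries above and below 100 CPM of background.

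Of the vesicular glutamate transporters, Slc17a6 lost ground to Slc17a7. The ratio was 0.0487, 0.0594 and 0.0695 in the lowest, median and highest control library and 0.0369, 0.0457 and 0.0506 in *Neuid* KD (log2 difference -0.40 ± 0.10, SE, adjusted exact permutation p = 0.01299). The groups overlapped at the edge, and the difference was -0.49 and -0.29 within the libraries above and below 100 CPM of background.

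Against Rims1, Rims2 went up and Rims3 went down. Rims3/Rims1 was 0.0980, 0.105 and 0.118 in the lowest, median and highest control library and 0.0730, 0.0871 and 0.0993 in *Neuid* KD (log2 difference -0.33 ± 0.08, SE, adjusted exact permutation p = 0.01299). Rims2/Rims1 was 0.313, 0.321 and 0.335 in control and 0.316, 0.354 and 0.392 in *Neuid* KD (log2 difference 0.14 ± 0.05, SE, adjusted exact permutation p = 0.0487). The Rims2/Rims1 call was the weakest of the 8 and was lost when any control library or *Neuid* KD replicate 1, 2, 3 or 5 was left out (adjusted p between 0.0531 and 0.104). Above and below 100 CPM of background the log2 difference of Rims2/Rims1 was 0.21 and 0.07, and that of Rims3/Rims1 was -0.37 and -0.27.

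The endocytic pairs differed by little and without overlap. Dnm3/Dnm1 was 0.353, 0.374 and 0.392 in the lowest, median and highest control library and 0.333, 0.344 and 0.348 in *Neuid* KD (log2 difference -0.13 ± 0.03, SE). Bin1/Amph was 0.312, 0.317 and 0.326 in control and 0.280, 0.295 and 0.304 in *Neuid* KD (log2 difference -0.12 ± 0.02, SE). Each had an adjusted exact permutation p of 0.00974. For the synaptogyrins, Syngr3/Syngr1 was 0.546, 0.558 and 0.571 in control and 0.506, 0.524 and 0.556 in *Neuid* KD (log2 difference -0.09 ± 0.02, SE, adjusted exact permutation p = 0.02226), and this call was lost without control replicate 3 or 5 (adjusted p = 0.0501 for each). Above and below 100 CPM of background the log2 difference was -0.06 and -0.12 for Syngr3/Syngr1, -0.15 and -0.09 for Dnm3/Dnm1, and -0.11 and -0.14 for Bin1/Amph.

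For the other 10 ratios the test did not pass the threshold. Among them, Pclo/Bsn was the narrowest, with 0.762 to 0.844 in control and 0.816 to 0.834 in *Neuid* KD, so that the low values of Bsn and Pclo in replicate 1 kept their proportion. Cplx2/Cplx1 differed by -0.05 on the log2 scale (2 SE either side: -0.11 to 0.0005). Syn2/Syn1 was called without *Neuid* KD replicate 6 (adjusted p = 0.0223), Vamp1/Vamp2 without control replicate 4 (adjusted p = 0.0278), and Unc13b/Unc13a and Pclo/Bsn without control replicate 1 (adjusted p = 0.013 and 0.0244).

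**Figure D4:**
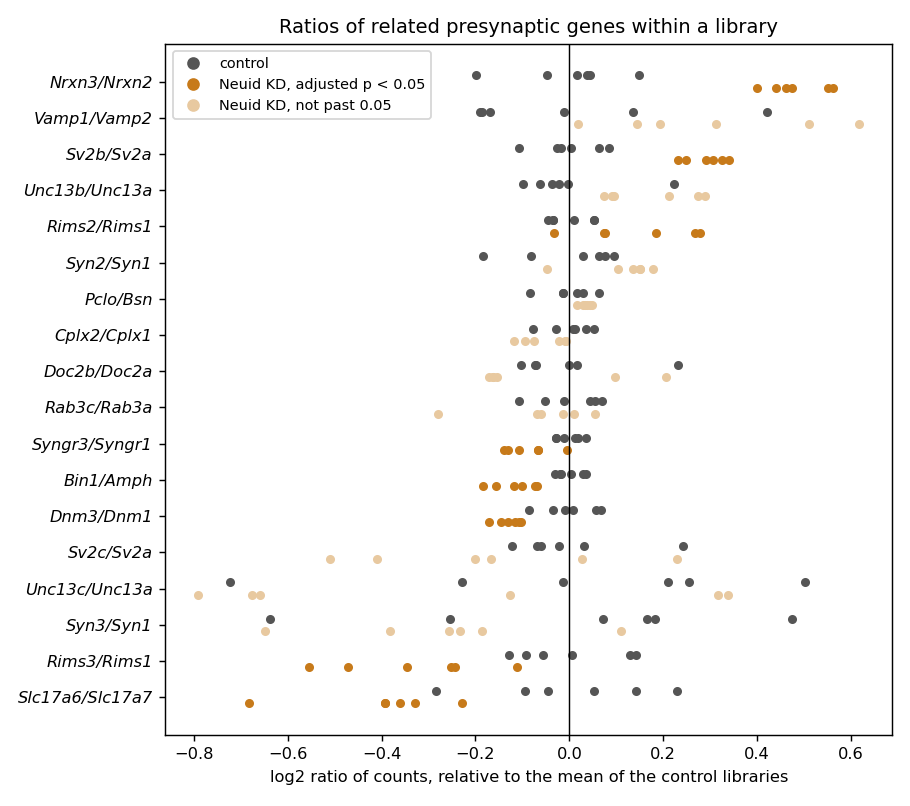
Log2 ratio of the counts of 2 related genes in each library (x axis), relative to the mean of the 6 control libraries, for 18 pairs ordered by the difference between the groups. Grey points are control and orange points *Neuid* KD, full orange where the adjusted exact permutation p is under 0.05 and pale where it is not; Nrxn3/Nrxn2, Sv2b/Sv2a, Dnm3/Dnm1 and Bin1/Amph have no overlap.

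The 7 called members differ in size and place. The 3 that rose are long genes in the GENCODE annotation of GRCm38. Nrxn3 (chr12:88722876-90334935, plus strand) spans 1612 kb and is the longest of the 45, Erc2 (chr14:27622428-28478537, plus strand) spans 856 kb and is next, and Rims2 (chr15:39198261-39684372, plus strand) spans 486 kb and is the sixth. The others among the 6 longest were not called, with log2 fold changes of 0.13 for Rims1, -0.07 for Dnm3 and -0.37 for Unc13c. Over the 45 members, Pearson's r between log2 gene span and log2 fold change was 0.318, and Spearman's rho was 0.247. This is a description across genes that share the same 12 libraries. Of the 4 that fell, Sncb (chr13:54758860-54766595, minus strand) is short, and Sv2c (chr13:95954594-96132577, minus strand), Slc17a6 (chr7:51622006-51671119, plus strand) and Rimbp2 (chr5:128757791-128953486, minus strand) lie between. Exon bases shared with another annotated gene were 3.48% for Nrxn3 and 1.09% for Erc2, 0.428% for Rimbp2, and none for the other 4. How the counting treated strand is not given in the sources used here, so reads of a gene and of an overlapping antisense gene cannot be told apart.

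The rest of the release machinery, 73 further genes of which 69 were tested, had 2 genes called higher (2.90%) and 3 lower (4.35%), and all 5 are release-site genes: the largest were Rab27b (log2 fold change -0.42, adjusted p = 6.8e-04), a GTPase of secretory vesicles, and Rab3b (-0.36, adjusted p = 0.0027). Among the other 14 tested SNARE and fusion genes, the other 16 vesicle genes and the other 19 endocytic genes, 0 were called by edgeR, with 2, 2 and 3 at an unadjusted p under 0.05. Under that limit were 3687 of all 19578 tested genes and 12 of the 45 members. Across the synapse, 3 of 30 genes of the postsynaptic density were called higher and none lower, the largest being Camk2a (log2 fold change 0.38) and Nlgn1 (0.35), a neuroligin that binds neurexins. Of the 15 tested synaptotagmins 1 was higher and 2 were lower, with Syt10 at -1.12 and Syt4 at -0.24. The median log2 fold change was 0.01 for the 69 other presynaptic genes, 0.04 for the postsynaptic density and -0.13 for the synaptotagmins, against -0.005 for the members.

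Markers of excitatory neurons and of neurons in general were read beside the members. Among the 11 excitatory markers 1 rose (Camk2a) and 1 fell (Nrgn, -0.20), and among the 20 pan-neuronal markers 1 rose (Nefm, 0.21) and 1 fell (Elavl4, -0.21). The summed level of 8 oligodendrocyte precursor markers was 101 to 121 CPM in control and 253 to 298 CPM in *Neuid* KD, and 3 of the 8 rose. This sum rests mostly on a single gene, with 39030 reads over all libraries against 5857 for the next. Of the 8, 2 had a negative log2 fold change, the lowest -0.77. Of the 4 tested markers of oligodendrocytes, 0 were called higher and 1 lower. Of the microglial, fibroblast and mural, and endothelial markers, 4, 8 and 5 genes were tested and 0 were called by edgeR, also at an unadjusted p under 0.05. Whether a larger glial share of the RNA bears on the 7 calls was not tested.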

How the data were processed

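Single-end RNA-seq of 12 libraries (SMARTer Stranded Total RNA kit) was processed by the authors with bcl2fastq, STAR on mm10 and featureCounts. They deposited raw read counts per Ensembl gene, without normalization, whose values are all whole numbers. The authors themselves tested with DESeq2 and RUVSeq. Here the counts were fitted with edgeR 4.0.16 (R 4.3.3): filterByExpr, TMM, a quasi-likelihood test with group as the only term, and Benjamini-Hochberg adjustment over all 19578 tested genes. RPKM used the exon length of the GENCODE annotation. The genome build of that annotation is GRCm38, and 55230 of 55471 identifiers had a symbol. Family ratios used counts + 0.5 and an exact permutation test. Intervals are 95% intervals of the fitted log2 fold change.

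The members, the role groups, the comparison lists, the tests and the cutoff of 100 CPM on background were all chosen with earlier results of these data known. Per group, values are printed for called members, the 2 highest by RPKM and the largest log2 fold change of each role group, and both genes of each called ratio. From other lists, at most the 2 largest called genes are named. No pair of replicates agreed within sampling noise (lowest chi-square per degree of freedom 3.38). Group and replicate came from the sample titles, which the names in the table match. The fits were tested on simulated data. Alternatives covered scaling, filters, DESeq2 1.42.0, limma-voom 3.58.1, background, depth, a replicate block and leaving out each library.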

Additional observations from a re-analysis of the deposited data

Results flagged for a closer look

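Each member's 6 control and 6 *Neuid* KD libraries were tested for a library far from the rest, by the gap of the highest or lowest library to its neighbour over the whole range (Dixon's limit for 6 values, 0.625). Of the 90 groups tested 18 passed, and chance alone passes about 1 in 20, or 4.5 of 90. In 15 of the 18 the library was *Neuid* KD replicate 1, and each time it was the lowest.

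At the active zone, *Neuid* KD replicate 1 had 483 CPM of Bsn (the other 5: 799 to 848), 402 CPM of Pclo (662 to 692), 531 CPM of Nrxn2 (676 to 732), 304 CPM of Unc13a (379.7 to 409), 206 CPM of Rims1 (249.6 to 273), 153 CPM of Ppfia3 (185 to 203) and 55.0 CPM of Nrxn3 (72.4 to 78.1). Among the vesicle genes it had 341 CPM of Syn1 (429 to 449), 426 CPM of Slc17a7 (461 to 482), 195 CPM of Syngr1 (212 to 218) and 186 CPM of Sv2a (210.3 to 225). Among the SNARE regulators and the endocytic genes it had 974 CPM of Cplx2 (1089 to 1153), 102 CPM of Stxbp5 (128 to 139.7), 353 CPM of Snap91 (405 to 430.5) and 115 CPM of Dnm3 (141 to 155). Of these 15 genes only Nrxn3 was called, and it was higher in *Neuid* KD with and without this library. The library was also the smallest, with 11152556 reads, and had 617 CPM on chemosensory receptor genes. Their part was not tested.

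In control, replicate 4 was the highest for Sv2c with 23.5 CPM (the other 5: 19.6 to 21.0) and for Vamp1 with 9.79 CPM (6.65 to 7.59), and replicate 1 was the lowest for Doc2a with 15.2 CPM (19.5 to 21.9). Without control replicate 4 the call for Sv2c was lost (adjusted p = 0.107).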

How the results depend on the processing

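Each member was refitted under 27 alternatives, 12 of which left out 1 library. All 7 called members kept their direction in all 27, and Nrxn3 was called in all 27. Of the 38 others, 25 were never called and 16 changed sign at least once. The main counts were 3 members higher and 4 lower, and 1235 and 473 genes over the whole table. Members called higher were 8 with scaling to pan-neuronal markers, where 1605 genes over the whole table were higher. They were 1 with GC and length offsets or with a log2 fold change past 0.5. Members called lower were 10 with upper-quartile normalization and 8 within the libraries under 100 CPM of background, 1 within those with at least 100 CPM, and 0 without a filter on low counts, with GC and length offsets or past a log2 fold change of -0.5. The cause was not tested.

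Over all genes, those called higher were 711 without a filter, 400 with GC and length offsets, 651 within the libraries with at least 100 CPM of background and 477 past a log2 fold change of 0.5. Those called lower were 1259 with upper-quartile normalization, 229 without a filter, 802 with a stricter filter (at least 1 CPM in 6 libraries), 987 with background as a covariate, 982 with 1 RUVs factor, 103 with GC and length offsets, 205 and 799 within the libraries above and below 100 CPM of background, and 155 past a log2 fold change of -0.5. Upper-quartile normalization moved the median log2 fold change of all genes from -0.03 to -0.09, and gave 1049 genes higher against 1259 lower, while that of the members moved to -0.06. With each library left out in turn, 2 to 4 members were higher and 3 to 4 lower, 822 to 1208 genes were higher and 355 to 780 lower (822 without *Neuid* KD replicate 2, 780 without *Neuid* KD replicate 1), and 6 to 9 family ratios were called. A pseudocount of 5 gave 7 ratios.

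With the replicate number as a block, 4 members were higher and 4 lower (1299 and 542 genes), and Sv2b was called (adjusted p = 0.0071). Whether the numbers pair the libraries is not known. Same-numbered libraries deviated from their group means with correlations between -0.637 and 0.774, and 2 of the 6 correlated best with their own number. These 2, replicates 1 and 3, were also alike in background in control and *Neuid* KD (667 and 617 CPM, and 26.7 and 27.1 CPM). A shared background and a shared culture cannot be told apart here. In a paired sign-flip test of the ratios (64 flips), 0 passed as a replicate block after adjustment over 18. The smallest p this test allows is 0.03125 before adjustment. Sv2b/Sv2a, Slc17a6/Slc17a7, Rims2/Rims1, Nrxn3/Nrxn2, Dnm3/Dnm1 and Bin1/Amph were at that floor. So were Syn2/Syn1 and Unc13b/Unc13a, which the main test did not call.

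Syn3, Unc13c and Vamp1 had 79 to 243 reads per library, the lowest of the members, and their 95% intervals were the widest of the 45. Their control coefficients of variation were 21.1%, 23.7% and 15.0%. The part of depth in this was not tested.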

Other observations

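Over the 45 members, the deviation of *Neuid* KD replicate 1 from the mean of the other 5 *Neuid* KD libraries, in log2 CPM, had a Pearson r of -0.368 with log2 exon length and of -0.139 with log2 gene span. With log2 mean RPKM the r was -0.367, and with the GC content of the transcript it was -0.157. The largest deviations were those of Bsn (-0.76), Pclo (-0.75) and Nrxn3 (-0.45). These are descriptions across genes of 1 library.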
